A study of Mus musculus with 6 samples.

Results

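The genes described here are those of the vascular endothelial growth factor (VEGF) system in mouse epidermis. They are the receptors Flt1, Kdr and Flt4, the co-receptors Nrp1 and Nrp2, and the ligands Vegfa, Vegfb, Vegfc and Pgf, which make 9 of the 41214 gene identifiers counted. They were taken by symbol from the count of reads per gene in each library. The set was chosen by the measured difference of Flt1 between the genotypes in these same libraries, so the levels of Flt1 are given as a description and without a test. The libraries came from ARPC4 ko epidermis (3 libraries) and wt epidermis (3 libraries) of C57BL/6 mice at postnatal day 4, separated from trypsin-treated skin. Arpc4 encodes a subunit of the Arp2/3 complex, the machine that starts branches on actin filaments. The labels give neither the promoter that drives a recombinase nor the part of Arpc4 that was deleted.

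VEGF ligands are secreted dimers that bind receptor tyrosine kinases, mainly on endothelial cells. Kdr (VEGFR2) carries most of the signal of Vegfa for vessel growth, while Flt1 (VEGFR1) binds Vegfa, Vegfb and Pgf tightly, signals weakly and is also made as a soluble form that traps ligand. Flt4 (VEGFR3) binds Vegfc and is known for lymphatic vessels, and the neuropilins bind both VEGFs and class 3 semaphorins. Keratinocytes are a known source of Vegfa in skin, and the epidermis itself holds no vessels. Reads were counted per gene, so membrane-bound and soluble Flt1 cannot be told apart here.

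Flt1 and Kdr both lie on chromosome 5 and Pgf on chromosome 12. These 3 genes are shown by the sequence before their start because they differed in pattern among the ko libraries, as described further on. The windows are the 250 bases upstream of the RefSeq start on GRCm38.p6, at chr5:147726012-147726261 for Flt1, chr5:75978456-75978705 for Kdr and chr12:85177314-85177563 for the first listed start of Pgf, all on the minus strand and written 5′ to 3′. Capitals mark matches, on either strand, to the core of the hypoxia-inducible factor site (ACGTG or GCGTG), an ETS core (CGGAAG), an AP-1 site (TGAGTCA) or the cyclic AMP response element (TGACGTCA). No matches overlapped in these 3 windows.
Flt1: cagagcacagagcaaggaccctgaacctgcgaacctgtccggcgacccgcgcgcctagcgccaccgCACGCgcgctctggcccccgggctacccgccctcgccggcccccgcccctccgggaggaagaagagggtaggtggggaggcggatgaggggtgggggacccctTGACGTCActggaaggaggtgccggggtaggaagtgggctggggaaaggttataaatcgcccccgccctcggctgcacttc
Kdr: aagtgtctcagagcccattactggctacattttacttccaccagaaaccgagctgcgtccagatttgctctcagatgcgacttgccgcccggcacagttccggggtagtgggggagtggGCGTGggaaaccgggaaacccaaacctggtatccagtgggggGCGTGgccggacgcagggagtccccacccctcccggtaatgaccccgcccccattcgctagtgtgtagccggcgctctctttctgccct
Pgf: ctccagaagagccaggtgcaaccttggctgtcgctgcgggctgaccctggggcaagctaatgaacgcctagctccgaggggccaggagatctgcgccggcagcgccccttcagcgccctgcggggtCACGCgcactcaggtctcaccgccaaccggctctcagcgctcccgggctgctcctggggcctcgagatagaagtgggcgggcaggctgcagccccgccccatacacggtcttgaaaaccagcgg
The Flt1 window held 1 match to the cyclic AMP response element, 81 to 74 bases before the start, and 1 to the hypoxia-inducible factor core, 184 to 180 bases before it. The Kdr window held 2 matches to the hypoxia-inducible factor core and the Pgf window 1. Among 27025 promoters of the same length, 1 per gene, 38.6% held the hypoxia-inducible factor core and 1.62% the cyclic AMP response element. The shares were 13.8% for the ETS core and 4.43% for the AP-1 site, of which the 3 windows held none. A match describes letters and not a site in use.

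Counts in genes summed to between 17561294 and 20745246 in ko libraries and between 19532675 and 22659511 in wt libraries. Suprabasal keratinocyte genes dominated every library, with Krt1, the keratin of the differentiating layers, at 36484 to 70327 CPM in ko and 31502 to 52617 CPM in wt (CPM, the count relative to the TMM-scaled library size). The titles of both groups hold a date for replicates 1 and 2, and those of replicate 3 hold the mark Tryp and no date. The labels name trypsin for all 6 libraries and do not say what the mark stands for, so whether replicate 3 was prepared in another way was not tested. Dated against undated title is used as a covariate below. Arpc4 itself was counted at 67.5, 65.6 and 64.5 CPM in ko replicates 1 to 3, against 72.5, 82.5 and 73.1 CPM in wt replicates 1 to 3. Its transcripts were thus only slightly lower in ko, and since the deleted part is not given these counts do not check the labels. Basal keratinocyte genes set libraries apart within both groups, summing to 3360, 4658 and 12028 CPM in ko replicates 1 to 3 and to 7766, 2107 and 10450 CPM in wt replicates 1 to 3. Among the ko libraries replicate 3 was highest for 10 of 10 basal markers and lowest for 9 of 9 suprabasal ones. Xist RNA, which marks cells with 2 X chromosomes, stood at 507.8 to 578.7 CPM in ko replicates 1 and 3 and wt replicate 3 and at no more than 0.425 CPM in the others, so the sexes were not balanced. Among 13704 tested genes 30, or 0.219%, were higher in ko and 0 were lower (edgeR quasi-likelihood test, Benjamini-Hochberg adjusted p under 0.05). Before adjustment (unadjusted p under 0.05) 1094 genes, 7.98%, were higher and 720, 5.25%, lower. DESeq2 called 430 genes higher, 2.79% of the 15388 with an adjusted p, and 218 lower, 1.42%, and limma-voom called 0.

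Of the receptors, Flt1, chosen for its difference, is described first. Flt1 (ENSMUSG00000029648, chr5:147561604-147726011, minus strand) was counted at 7.21, 6.86 and 13.7 CPM in ko replicates 1 to 3, against 0.528, 0.425 and 0.363 CPM in wt replicates 1 to 3. These values rest on 145, 116 and 261 reads in ko and on 12, 8 and 8 reads in wt. The groups lay far apart, and ko replicate 3 was highest. The means were 9.25 ± 3.85 CPM in ko and 0.439 ± 0.0836 CPM in wt (SD, n = 3 each), with a fitted log2 fold change of 4.38 (SE 0.42). Within the dated libraries the ratio of means was 14.7, and between the undated libraries, 1 per group, it was 37.7. Both ratios come from the values by which Flt1 was chosen, so neither is a check on the gap.

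Kdr (ENSMUSG00000062960, chr5:75932827-75978458, minus strand), the main signalling receptor, did not follow Flt1 across the ko libraries. It was counted at 3.13, 3.31 and 0.577 CPM in ko replicates 1 to 3, against 0.132, 0.425 and 0.499 CPM in wt replicates 1 to 3, from 63, 56 and 11 reads in ko and 3, 8 and 11 reads in wt. The groups did not overlap, but ko replicate 3 held as many reads as wt replicate 3. Its fitted difference on the log2 scale, 2.72 (SE 0.76, 95% interval 0.90 to 4.55), missed the threshold over all genes (edgeR, adjusted p = 0.192). Both Flt1 and Kdr passed the filter on low counts mainly through their ko libraries. Within the dated libraries the ratio of Kdr means was 11.6, and edgeR called Kdr there (log2 fold change 3.54, adjusted p = 0.0291). Between the undated libraries the ratio was 1.16. DESeq2 called Kdr on all libraries (adjusted p = 0.0195). In the other 15 of 17 alternative settings that fitted Kdr it was not called, limma-voom among them (adjusted p = 0.319).

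Flt4 (ENSMUSG00000020357, chr11:49609263-49652739), the receptor of lymphatic vessels, was too low to test. It had 8, 18 and 0 reads in ko replicates 1 to 3 and 0, 3 and 0 reads in wt replicates 1 to 3, so ko replicate 3 and 2 wt libraries held none. Reads were thus found in 2 ko libraries and 1 wt library. Of the 5 lymphatic endothelial markers 0 were abundant enough to test, and their summed level was 3.83, 3.49 and 0.944 CPM in ko replicates 1 to 3 and 0.616, 0.745 and 1.13 CPM in wt replicates 1 to 3.

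**Figure D1:**
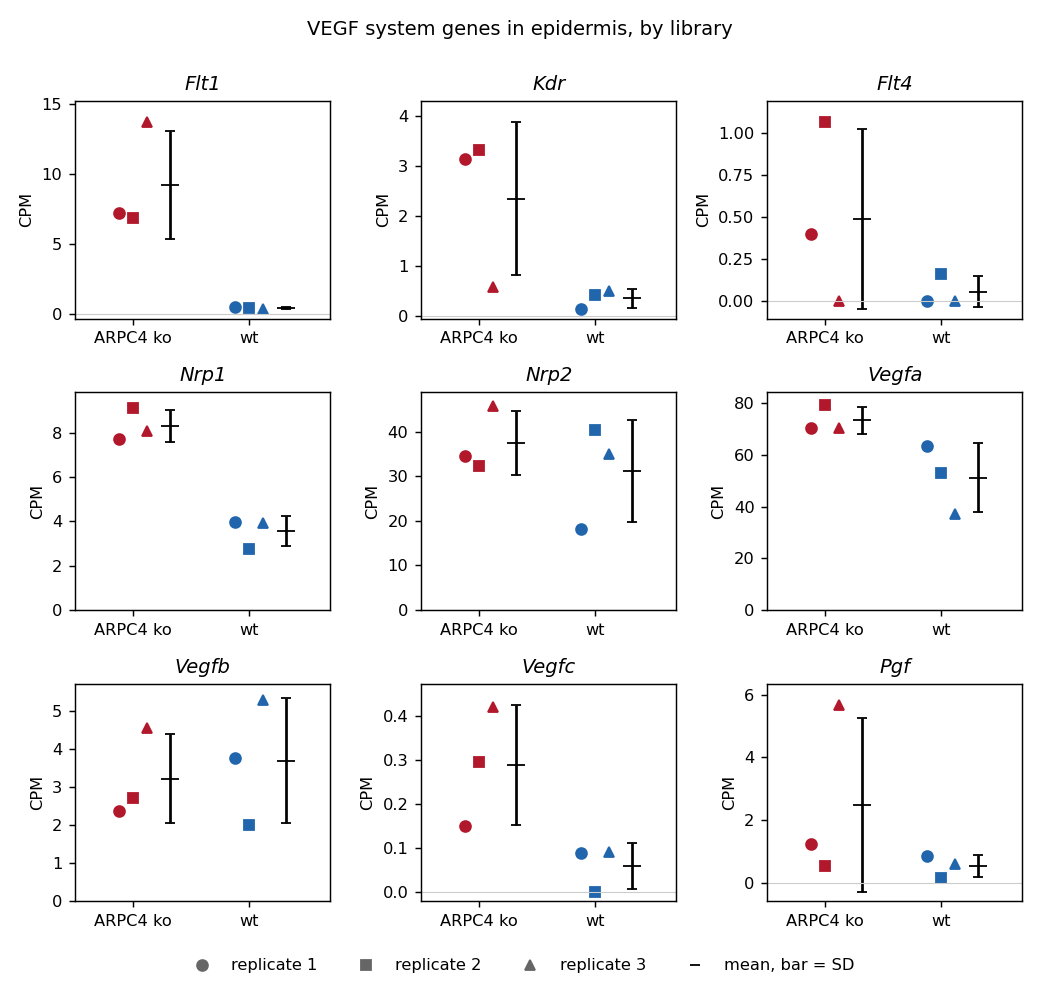
Level of each VEGF system gene (CPM, linear axes that differ between panels) in the 3 ARPC4 ko and 3 wt libraries, with symbols for replicates and the mean ± SD beside them. Flt1 lay at 6.86 to 13.7 CPM in ko and 0.363 to 0.528 CPM in wt, with ko replicate 3 highest for Flt1 and Pgf and lowest for Kdr and Flt4 among the ko libraries.

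Among the co-receptors Nrp1 was set apart between the groups and Nrp2 overlapped. Nrp1 (ENSMUSG00000025810, chr8:128358604-128503363), which presents Vegfa to Kdr, was counted at 7.70, 9.11 and 8.08 CPM in ko replicates 1 to 3, against 3.96, 2.77 and 3.94 CPM in wt replicates 1 to 3. All ko libraries lay close together and above all wt libraries, ko replicate 3 included. At 1.21 on the log2 scale (SE 0.22, 95% interval 0.70 to 1.73) the difference missed the threshold over all genes (edgeR, adjusted p = 0.0852). It passed with the dated title as a covariate (edgeR, 1.21, adjusted p = 0.0272), a fit that called 709 of 13704 genes, and with DESeq2 (adjusted p = 0.000119). In the other 16 of 18 alternative settings Nrp1 was not called, limma-voom among them (adjusted p = 0.105). Nrp2 (ENSMUSG00000025969, chr1:62703285-62818695), the co-receptor that also serves Vegfc and Sema3f, was counted at 34.6, 32.3 and 45.7 CPM in ko replicates 1 to 3, against 18.2, 40.4 and 35.0 CPM in wt replicates 1 to 3. The groups overlapped, with a log2 fold change of 0.27 (SE 0.30, 95% interval -0.44 to 0.98, adjusted p = 0.797). Without wt replicate 1 it was -0.043 (adjusted p = 0.989).

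Among the ligands Vegfa (ENSMUSG00000023951, chr17:46016993-46032369, minus strand) was by far the most abundant. It was counted at 70.5, 79.4 and 70.3 CPM in ko replicates 1 to 3, against 63.5, 53.0 and 37.3 CPM in wt replicates 1 to 3. The ko libraries were alike and above all wt libraries, which spread more. The means were 73.4 ± 5.16 CPM in ko and 51.2 ± 13.2 CPM in wt (SD, n = 3 each), and a log2 fold change of 0.52 (SE 0.20, 95% interval 0.05 to 0.99) missed the threshold (edgeR, adjusted p = 0.33). Vegfb (ENSMUSG00000024962, chr19:6982473-6987651), a ligand of Flt1 but not of Kdr, was counted at 2.39, 2.72 and 4.56 CPM in ko replicates 1 to 3, against 3.79, 2.02 and 5.30 CPM in wt replicates 1 to 3. Its groups overlapped (log2 fold change -0.21, SE 0.42, 95% interval -1.20 to 0.78, adjusted p = 0.895), and without wt replicate 3 the value was 0.13 (adjusted p = 0.896).

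Pgf (ENSMUSG00000004791, chr12:85166635-85177790, minus strand) encodes placental growth factor, which binds Flt1 and not Kdr. It was counted at 1.24, 0.532 and 5.66 CPM in ko replicates 1 to 3, against 0.836, 0.16 and 0.589 CPM in wt replicates 1 to 3. The groups overlapped, and the high value belonged to ko replicate 3, the library in which Flt1 was also highest. At 2.19 on the log2 scale (SE 0.95, 95% interval -0.07 to 4.45) the difference missed the threshold (edgeR, adjusted p = 0.399), and without ko replicate 3 it was 0.70 (adjusted p = 0.765). Vegfc (ENSMUSG00000031520, chr8:54077606-54187096), the ligand of Flt4, had 3, 5 and 8 reads in ko replicates 1 to 3 and 2, 0 and 2 reads in wt replicates 1 to 3, and was not tested. Vegfd, the other Flt4 ligand, was counted at 4.77, 5.38 and 5.93 CPM in ko replicates 1 to 3, against 6.16, 2.92 and 8.21 CPM in wt replicates 1 to 3, with overlapping groups (log2 fold change -0.11, SE 0.37, adjusted p = 0.939).

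Of the 9 genes 7 passed the filter on low counts and were fitted. Of the 6 other than Flt1, 0 passed over all genes with edgeR, where 0.219% of all tested genes were called. Before adjustment 3 were higher (Kdr, Nrp1 and Vegfa) and 0 lower, where 7.98% and 5.25% of all tested genes were. DESeq2 called 2 of the 6 higher, Kdr and Nrp1, where 2.79% of its genes were higher and 1.42% lower, and limma-voom called 0. Of the same 6 the ko libraries were all higher than the wt libraries in Kdr, Nrp1 and Vegfa, as in 11.3% of all tested genes, and in 0 were they all lower, as in 8.03% of genes. Vegfc, which was not fitted, also had its ko libraries above its wt libraries. Kdr entered the fit mainly through its ko libraries, so the counts over the 6 describe the fit and support nothing by themselves.

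**Figure D2:**
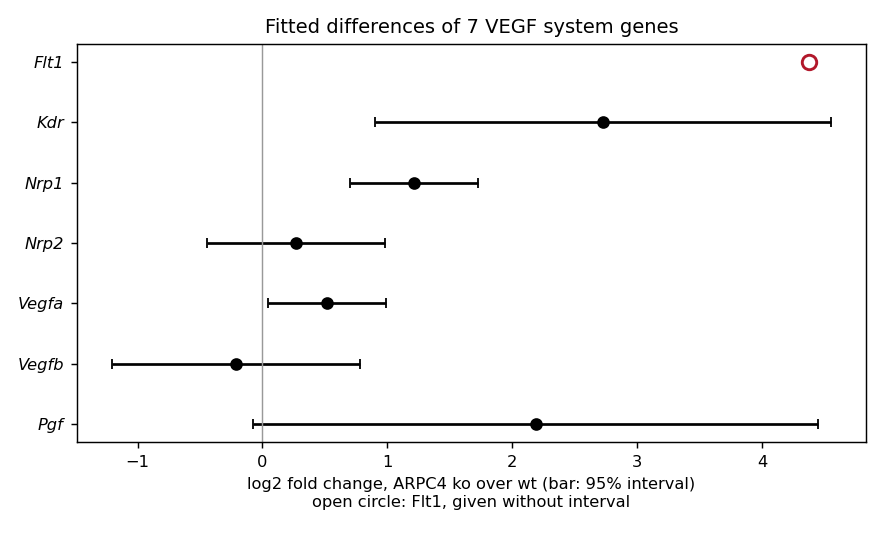
Fitted log2 fold change of ARPC4 ko over wt for the 7 VEGF system genes that could be fitted, with 95% intervals for all but Flt1, which was chosen for its difference and is drawn as an open circle. The intervals of Kdr (0.90 to 4.55), Nrp1 (0.70 to 1.73) and Vegfa (0.05 to 0.99) lay above 0 and those of Nrp2, Vegfb and Pgf included it.

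To set the genes against each other, levels were divided by the length of their merged exons. Per kilobase Vegfa averaged 17.1 ± 1.20 CPM in ko and 11.96 ± 3.08 CPM in wt (SD, n = 3 each) and lay above every other member in every library. In ko the order of the mean levels per kilobase was Nrp2 at 3.17 CPM, Vegfb at 2.01, Pgf at 0.854, Nrp1 at 0.848, Flt1 at 0.685, Kdr at 0.259, Vegfc at 0.118 and Flt4 at 0.0592. Apart from Vegfa against Nrp2 and Flt1 against Kdr, each gene overlapped its neighbour in this order. In wt the order was Nrp2 at 2.63 CPM per kilobase, Vegfb at 2.31, Nrp1 at 0.364, Pgf at 0.182, Kdr at 0.039, Flt1 at 0.0325, Vegfc at 0.0243 and Flt4 at 0.00646. There Vegfa stood apart from Nrp2 and Vegfb from Nrp1, while the other neighbours overlapped. Flt1 was thus above Kdr in all ko libraries and overlapped it in wt. With the longest annotated transcript as the length, Pgf came after Nrp1 and Flt1 in ko, and Flt1 before Kdr in wt, at 0.0636 and 0.0594 CPM per kilobase.

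Ligands and receptors were also summed in each library. The 3 receptors summed to 0.929, 1.004 and 1.08 CPM per kilobase in ko replicates 1 to 3, against 0.0537, 0.098 and 0.0821 in wt replicates 1 to 3. The 4 ligands summed to 18.4, 20.5 and 21.4 CPM per kilobase in ko replicates 1 to 3, against 17.5, 13.7 and 12.2 in wt replicates 1 to 3. Ligand over receptor was thus 19.8, 20.4 and 19.8 in ko and 325.6, 139.5 and 149.1 in wt, from receptor levels of few reads in wt. The receptor sum was chosen with the level of Flt1 known and holds Flt1, which was chosen for its difference. No test was made of the sum, and its gap between the groups supports nothing by itself. In ko the sum was alike in the 3 libraries but its parts were not. Flt1 made 57.5, 50.6 and 94.1% of it in ko replicates 1 to 3, against 72.8, 32.1 and 32.7% in wt replicates 1 to 3. Vegfa made 76.8 to 90.3% of the ligand sum in ko and 71.0 to 90.4% in wt.

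**Figure D3:**
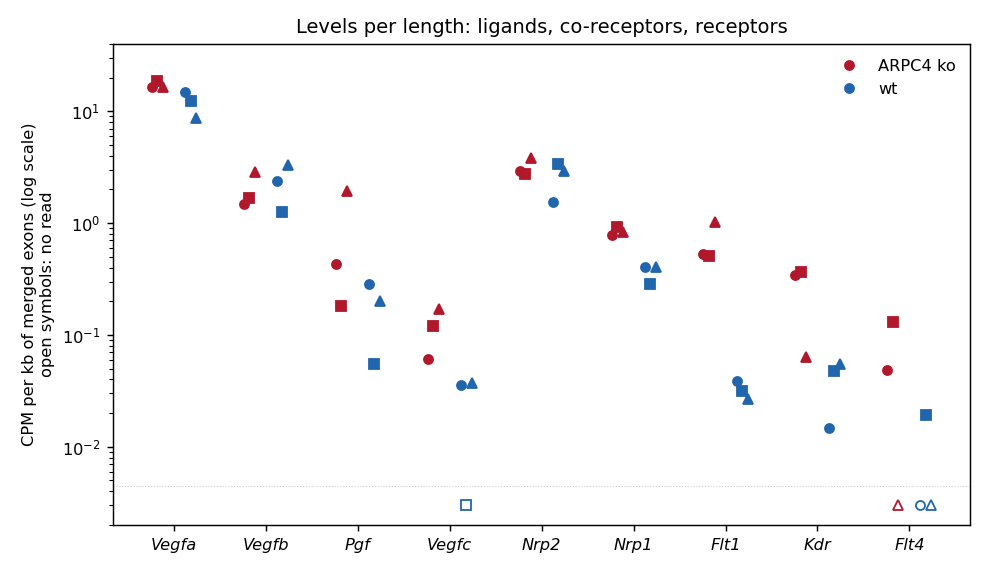
Level of each gene per kilobase of merged exons (CPM per kb, log axis) in ARPC4 ko and wt libraries, with ligands at the left, co-receptors in the middle and receptors at the right, symbols for replicates as circle, square and triangle for replicates 1, 2 and 3, and open symbols at the bottom for libraries with no read. The ligand Vegfa exceeded every receptor in all 6 libraries, and Flt1 lay at 0.508 to 1.01 in ko.

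Since Flt1 and Kdr are known endothelial genes, the markers of endothelial cells were set beside them. Of 22 endothelial markers, chosen without the genes above, 16 passed the filter on low counts. Of these 8 had under 10 reads in every wt library and entered the fit through their ko libraries, so counts and medians over the 16 describe the fit and support nothing by themselves. With edgeR 1 was called over all genes, Mmrn2, an endothelial matrix protein, with 20, 23 and 13 reads in ko replicates 1 to 3 and 2, 1 and 2 reads in wt replicates 1 to 3. It is among those 8. Before adjustment 15 were higher and 0 lower, where 7.98% and 5.25% of all tested genes were. DESeq2 called 12 higher, where 2.79% of its genes were, and limma-voom 0. The median log2 fold change was 2.61, against 0.02 over all tested genes. Cdh5, the cadherin of endothelial junctions, was counted at 4.82, 4.02 and 1.78 CPM in ko replicates 1 to 3, against 0.264, 0.532 and 0.499 CPM in wt replicates 1 to 3 (log2 fold change 3.04, SE 0.50, adjusted p = 0.0822). Robo4, a guidance receptor, had 35, 19 and 10 reads in ko replicates 1 to 3 and 1, 2 and 2 reads in wt replicates 1 to 3. Rasip1, the most abundant marker, overlapped between groups (log2 fold change -0.06, SE 0.29, adjusted p = 0.958).

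The 22 markers summed to 44.9, 47.8 and 30.7 CPM in ko replicates 1 to 3, against 14.7, 16.8 and 14.6 CPM in wt replicates 1 to 3. Of these sums Rasip1, which overlapped between groups, made 6.96, 8.57 and 4.41 CPM in ko and 6.69, 8.35 and 5.76 CPM in wt. All 22 had reads in every ko library, and 1 to 3 of them had none in a wt library. Ko replicate 3 was the lowest ko library for 18 of the 22 markers and the highest for 1, Ecscr, an endothelial surface protein, whereas it was the highest for Flt1. Flt1 lay 2.30, 2.08 and 3.79 log2 units above the mean of the markers in ko replicates 1 to 3, against 0.88, 0.37 and 0.13 in wt replicates 1 to 3. Kdr lay 1.12, 1.05 and -0.56 log2 units from that mean in ko replicates 1 to 3, against -0.56, 0.37 and 0.50 in wt replicates 1 to 3. The mean gap of Flt1 to the markers was 2.72 in ko and 0.46 in wt, while that of Kdr was 0.54 in ko and 0.10 in wt. In wt Flt1 had 12, 8 and 8 reads in replicates 1 to 3. At such counts the prior count of 2 narrows gaps between genes, so the wt gaps are imprecise. Flt1 over Kdr, in CPM, was 2.30, 2.07 and 23.7 in ko replicates 1 to 3, against 4.00, 1 and 0.727 in wt replicates 1 to 3. In these bulk samples more endothelial cells and more RNA per cell cannot be told apart, and the part of endothelial RNA in the difference of Flt1 was not tested.

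**Figure D4:**
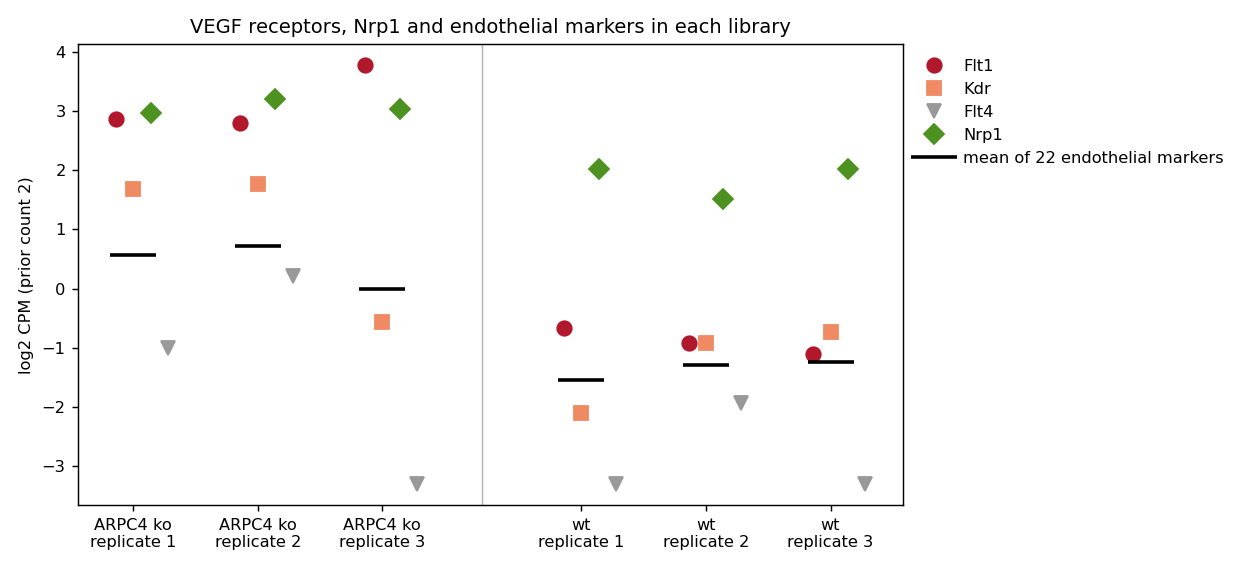
Log2 CPM (prior count 2) of Flt1, Kdr, Flt4 and Nrp1 in each library, with a bar at the mean of 22 endothelial markers. In ARPC4 ko replicate 3 Flt1 lay 3.79 log2 units above the bar and Kdr 0.561 below it, and in wt both lay within 1 log2 unit of it.

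Markers of other dermal cells were set beside these. Mural cells, which wrap vessels, were followed by 10 markers, of which 7 were tested. With edgeR 1 was called higher, the smooth muscle myosin Myh11 (log2 fold change 2.88, SE 0.35, adjusted p = 0.0459), where 0.219% of all tested genes were. Myh11 had 85, 84 and 54 reads in ko replicates 1 to 3 and 9, 12 and 13 reads in wt replicates 1 to 3. Pdgfrb had under 10 reads in every wt library. Both entered the fit mainly through their ko libraries, so counts and medians over the 7 describe the fit and support nothing by themselves. Rgs5, a pericyte gene, was counted at 8.15, 11.7 and 3.62 CPM in ko replicates 1 to 3, against 0.132, 0.691 and 0.816 CPM in wt replicates 1 to 3 (3.84, SE 0.64, adjusted p = 0.0822). Before adjustment 4 of the 7 mural markers were higher and 0 lower, where 7.98% and 5.25% of all tested genes were. DESeq2 called 4 higher, where 2.79% of its genes were, and the median log2 fold change of the 7 was 0.90. Ko replicate 3 was the lowest ko library for 9 of the 10 mural markers and the highest for 1. Of 10 fibroblast markers 0 passed with edgeR, 8 were higher before adjustment and DESeq2 called 6, with a median of 2.07. The same shares of all genes stand beside these counts. The collagen Col3a1 was counted at 248.2, 368.2 and 70.7 CPM in ko replicates 1 to 3, against 21.2, 55.7 and 58.4 CPM in wt replicates 1 to 3. The matrix protein Postn lay at 350.8, 417.5 and 1757 CPM in ko replicates 1 to 3, against 191.5, 40.8 and 270.5 CPM in wt replicates 1 to 3. It was the 1 of 10 fibroblast markers that was highest in ko replicate 3 among the ko libraries, and 8 were lowest there.

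Macrophages and monocytes are also known to carry Flt1. Of 12 markers 0 passed with edgeR, while 2 were higher and 0 lower before adjustment and DESeq2 called 1, with a median log2 fold change of 0.80. Over all tested genes 7.98% were higher and 5.25% lower before adjustment, and DESeq2 called 2.79% of its genes higher. The 12 macrophage and monocyte markers were also followed as a sum. They summed to 107.4, 95.6 and 81.6 CPM in ko replicates 1 to 3, against 47.1, 59.4 and 81.3 CPM in wt replicates 1 to 3, and none had 0 reads in any library. Among the ko libraries replicate 3 was highest for 3 of the 12 and lowest for 5. The mannose receptor Mrc1 was counted at 4.18, 3.96 and 6.50 CPM in ko replicates 1 to 3, against 0.484, 0.745 and 1.09 CPM in wt replicates 1 to 3 (log2 fold change 2.65, SE 0.37, adjusted p = 0.0637). Csf1r, the receptor of macrophage growth factor, overlapped between groups at 52.3, 32.1 and 35.3 CPM in ko replicates 1 to 3, against 21.9, 26.5 and 40.4 CPM in wt replicates 1 to 3. The 6 Langerhans and dendritic cell markers had 0 called with edgeR, 0 before adjustment and 0 with DESeq2 (median 0.44). Of 10 basal keratinocyte markers 0 were called by any of these (median -0.04), and likewise 0 of 9 suprabasal ones (median -0.01). The part of these cells in the levels of Flt1, Pgf and Nrp1 was not tested.

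The steps around the receptors were examined with lists of known genes. The 7 lists held 104 counted genes, of which 92 were tested, and 0 passed with edgeR over all genes. Before adjustment 17, or 18.5%, were higher and 6, or 6.52%, lower, where 7.98% and 5.25% of all tested genes were. Among the 17 were Tie1 and Aplnr, which had under 10 reads in every wt library and entered the fit through their ko libraries. Tie1 and Tek, also among the 17, are on the endothelial list as well, so the share is a description and supports nothing by itself. DESeq2 called 7 higher and 3 lower, and limma-voom 0. The counts of the single lists stand against the same shares of all genes. With the dated title as a covariate edgeR called 11 of the 92, where it called 709 of all 13704 tested genes. In 13 of 18 alternative settings 0 of the pathway genes were called, so the single calls named below depend on the setting. The median log2 fold change over these genes was 0.07.

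Of 29 genes of signalling downstream of the receptors 0 passed with edgeR or DESeq2. Before adjustment 1 was higher and 1 lower, or 3.45% each way, against 7.98% higher and 5.25% lower over all tested genes (median log2 fold change 0.04). Nos3, the endothelial nitric oxide synthase, was counted at 1.44, 1.83 and 1.26 CPM in ko replicates 1 to 3, against 0.836, 0.957 and 0.68 CPM in wt replicates 1 to 3 (0.87, SE 0.29, adjusted p = 0.275). The heat shock protein Hspb1, the most abundant of the list, lay at 632.7, 572.1 and 462.7 CPM in ko replicates 1 to 3, against 722.9, 884.7 and 662.1 CPM in wt replicates 1 to 3 (-0.44, SE 0.19, adjusted p = 0.376). Proteases and cofactors that mature Vegfc and Vegfd, with Vegfd itself, made a list of 6, of which 4 were tested, 0 passed with edgeR or DESeq2 and 0 had an unadjusted p below 0.05. Furin, the most abundant, had a log2 fold change of 0.15 (SE 0.23, adjusted p = 0.857).

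Of 9 genes that VEGF is known to induce in endothelial cells 5 were tested, 0 passed with edgeR, 1 was higher and 1 lower before adjustment, and DESeq2 called 1 higher and 1 lower. Angpt2, the antagonist ligand of the Tie2 receptor, was counted at 9.34, 2.84 and 2.57 CPM in ko replicates 1 to 3, against 15.2, 22.1 and 15.0 CPM in wt replicates 1 to 3. The groups did not overlap and ko was the lower one (log2 fold change -1.81, SE 0.50, edgeR adjusted p = 0.189). In each wt library Angpt2 alone exceeded the sum of the 22 endothelial markers, which was 14.7, 16.8 and 14.6 CPM in wt replicates 1 to 3. Which cells held the RNA of the genes of this list was not tested. Without ko replicate 1 Angpt2 was called lower (edgeR, -2.69, adjusted p = 0.0491), and DESeq2 called it on all libraries (adjusted p = 0.0106). Adamts1, a matrix protease, was counted at 111.9, 167.6 and 163.8 CPM in ko replicates 1 to 3, against 108.9, 71.7 and 74.8 CPM in wt replicates 1 to 3 (0.80, SE 0.23, adjusted p = 0.202). Dll4, the Notch ligand of tip cells, was too low for the fit, at 0.547, 1.12 and 0.367 CPM in ko replicates 1 to 3, against 0.044, 0.106 and 0.0907 CPM in wt replicates 1 to 3.

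Hypoxia-inducible factors are known activators of Vegfa and Flt1. Of 9 tested regulators 0 passed with edgeR, while 3 were higher and 0 lower before adjustment and DESeq2 called 2 (median log2 fold change -0.01). Hif1a, the oxygen-regulated subunit, was counted at 125.1, 182.6 and 202.1 CPM in ko replicates 1 to 3, against 94.1, 86.2 and 106.6 CPM in wt replicates 1 to 3 (0.83, SE 0.20, edgeR adjusted p = 0.148; adjusted p = 0.031 with the dated title as a covariate). Its prolyl hydroxylases Egln1 (0.41, SE 0.10, adjusted p = 0.146) and Egln3 (0.65, SE 0.20, adjusted p = 0.239) also had all ko libraries above all wt libraries without passing. Both passed with the dated title as a covariate (edgeR, adjusted p = 0.0421 for Egln1 and 0.0329 for Egln3). Epas1, the other oxygen-regulated subunit, overlapped between groups (-0.20, SE 0.38, adjusted p = 0.893).

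Of 15 hypoxia target genes, all tested, 0 passed with edgeR, 3 were higher and 2 lower before adjustment and DESeq2 called 1 higher and 1 lower, with a median of 0.38. The glycolytic regulator Pfkfb4 was counted at 66.7, 70.6 and 77.3 CPM in ko replicates 1 to 3, against 39.7, 49.0 and 33.01 CPM in wt replicates 1 to 3 (log2 fold change 0.82, SE 0.16, adjusted p = 0.101). Bnip3, a mitophagy receptor, went the other way, at 60.9, 62.4 and 39.0 CPM in ko replicates 1 to 3, against 100.4, 123.5 and 76.4 CPM in wt replicates 1 to 3 (-0.89, SE 0.24, adjusted p = 0.185). Each of these passed with the dated title as a covariate (edgeR, adjusted p = 0.0318 for Pfkfb4 and 0.0105 for Bnip3). Oxygen in the tissue was not measured.

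Semaphorins compete with VEGF for the neuropilins, and plexins are their signalling partners. Of 12 listed genes 10 were tested, 0 passed with edgeR, 2 were higher and 2 lower before adjustment and DESeq2 called 1 lower (median 0.03). Sema3d was counted at 67.9, 54.5 and 49.8 CPM in ko replicates 1 to 3, against 98.7, 95.2 and 117.0 CPM in wt replicates 1 to 3 (-0.85, SE 0.16, adjusted p = 0.0928). It passed with the dated title as a covariate (edgeR, adjusted p = 0.0285). Sema3f, a ligand of Nrp2, lay at 130.8, 122.8 and 117.7 CPM in ko replicates 1 to 3, against 136.8, 116.5 and 121.0 CPM in wt replicates 1 to 3 (-0.01, SE 0.12, adjusted p = 0.983).

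Of 25 other angiogenic ligands, receptors and inhibitors 21 were tested, 0 passed with edgeR, 7 were higher and 1 lower before adjustment and DESeq2 called 3 higher and 1 lower (median 0.14). Fgf1, an angiogenic growth factor, was counted at 34.9, 54.4 and 77.0 CPM in ko replicates 1 to 3, against 21.4, 10.9 and 16.9 CPM in wt replicates 1 to 3 (1.76, SE 0.35, adjusted p = 0.101). Its groups did not overlap, and ko replicate 3 was highest. It passed with the dated title as a covariate (edgeR, adjusted p = 0.0425). Thbs1, an inhibitor of vessel growth and the most abundant of the list, varied within groups, at 53.5, 56.6 and 550.7 CPM in ko replicates 1 to 3, against 110.0, 15.3 and 583.2 CPM in wt replicates 1 to 3 (-0.10, SE 1.35, adjusted p = 0.987).

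**Figure D5:**
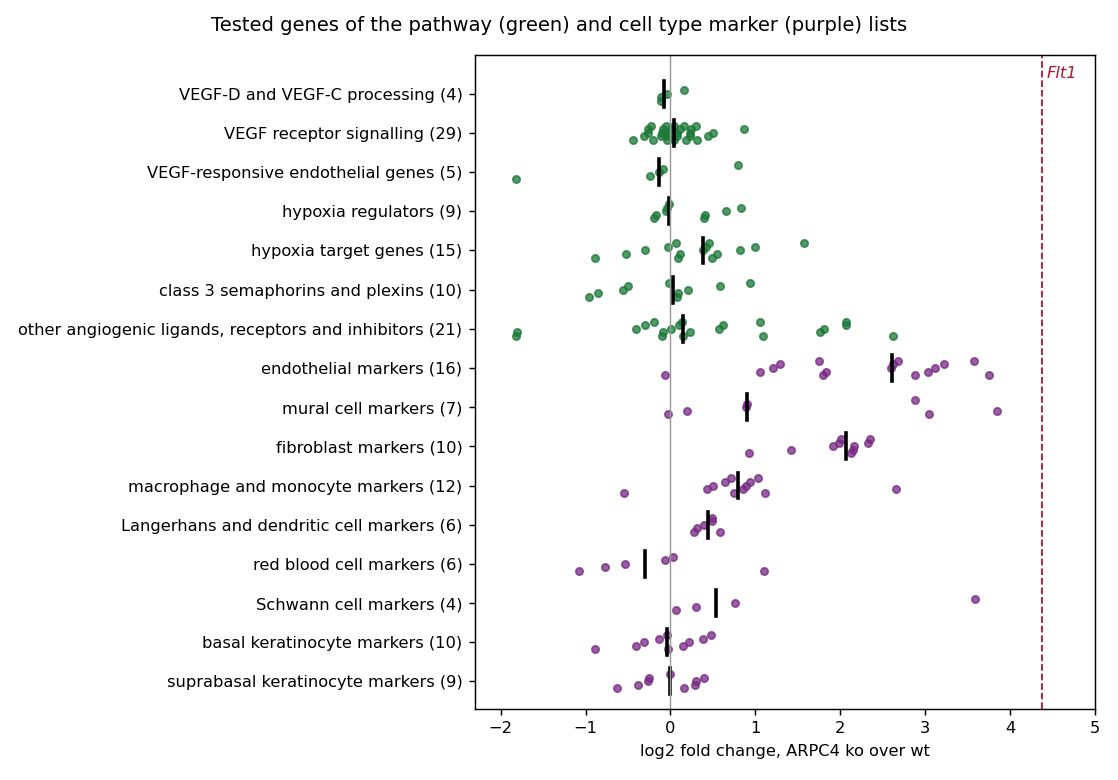
Log2 fold change of ARPC4 ko over wt for every tested gene of 7 pathway lists (green) and 9 cell type marker lists (purple), with a black bar at each median, the number tested in brackets and a dashed line at Flt1 (4.38). The lymphatic list is not drawn because 0 of its genes were tested, and the endothelial and fibroblast medians (2.61 and 2.07) lay farthest from 0.

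The genes whose pattern was most like that of Flt1 were looked up over the 6 libraries, by Pearson correlation of log2 CPM among 11752 other genes of at least 1 CPM. The 10 most alike were Itpr1, Rps6ka4, Entpd7, Aldh18a1, Ppp1r15b, Nat8l, Zfp646, Lypd1, Stc2 and Tbc1d2, with r between 0.988 and 0.995. All share the libraries and the gap between genotypes with Flt1, so r is a description. None is on a list of endothelial, mural or macrophage markers. Markers with a mean below 1 CPM, such as Robo4 and Mmrn2, were not among the genes compared, so this absence supports nothing by itself. Stc2, a secreted glycoprotein, was counted at 6.46, 9.17 and 11.0 CPM in ko replicates 1 to 3, against 2.11, 2.07 and 1.72 CPM in wt replicates 1 to 3, and Lypd1 at 4.37, 6.801 and 8.18 CPM in ko replicates 1 to 3, against 0.704, 0.638 and 0.725 CPM in wt replicates 1 to 3. Nat8l, an N-acetylaspartate synthase, was counted at 21.02, 26.3 and 27.9 CPM in ko replicates 1 to 3, against 7.09, 5.80 and 5.85 CPM in wt replicates 1 to 3. The choice by likeness to Flt1 fixes the gap between the groups, so no test is given for these genes.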

How the data were processed

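Strand-specific mRNA libraries (TruSeq Stranded mRNA) were sequenced as single-end reads of 51 bp, per the labels' protocols. The deposited values are raw counts of reads per Ensembl gene, made by the authors, with TopHat2 (2.0.12), HTSeq, Bowtie (1.1) and the build mm10 listed, per the submitters' processing notes. Which settings, strand option and gene annotation they used is not stated there. Reads not assigned to a gene stayed out of library sizes. Of all reads listed, those with several alignments made up 32.4 to 40.9%. Symbols came from a table of gene names (40254 of 41214 identifiers matched), and coordinates and exon lengths from GENCODE M21 on GRCm38, the assembly of mm10. In that annotation 2 of the 9 genes overlap another gene, Nrp1 and Nrp2, and neither partner had a read. Promoter sequences are RefSeq's.

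Groups follow the genotype label, and replicate numbers the marks in the titles. The labels do not say that replicates are separate animals, so p-values measure the spread between these libraries, which may be technical. edgeR 4.0.16 in R 4.3.3 (filterByExpr, TMM, glmQLFit with robust estimation, glmQLFTest) was fitted to all 13704 genes left, with Benjamini-Hochberg adjustment over all of them and a threshold of 0.05. The SE is the log2 fold change, ko over wt, divided by the root of F. DESeq2 1.42.0 and limma-voom (limma 3.58.1) were alternatives, with other scalings, filters, covariates and left-out libraries. Log2 CPM used a prior count of 2. The fits were tested on simulated data.

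The members and gene lists were chosen with earlier results of these data known. Named from each list were the 4 tested genes with the smallest p and the most abundant one, of which those bearing most on the system are printed. Dll4, Epas1 and Sema3f were chosen after their values were seen.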

Additional observations from a re-analysis of the deposited data

How the results depend on the processing

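Over the whole table the count of called genes, 30, was 18 with a filter of 1 CPM in 3 libraries, 18 with the older quasi-likelihood fit, 57 without a filter, 648 with DESeq2, 0 with limma-voom (1748 at an unadjusted p under 0.05), 709 with the dated title as a covariate and 227 among the dated libraries alone. Leaving out single libraries gave 0 to 64: 0 when ko replicate 2 or any wt library was dropped, 29 without ko replicate 1 and 64 without ko replicate 3. With a replicate block it was 354. The labels do not say that the numbers pair the samples. The deviations of same-numbered ko and wt libraries correlated at -0.186, 0.469 and 0.67. Ko replicates 2 and 3 correlated best with the wt library of the same number, and ko replicate 1 with wt replicate 2. The block left 0 of the 6 other VEGF system genes called and called 3 pathway genes (Egln3, Bnip3 and Thbs2). The 6 had 2 called with DESeq2, 1 with that covariate, 1 among the dated libraries and 0 without single libraries. The pathway genes had 10, 11 and 3 called under these, and 0 to 1 without single libraries.

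The log2 fold change of Flt1 stayed between 3.83 and 4.55, with 3.83 among the dated libraries and 3.95 to 4.55 without single libraries. Flt1 against the endothelial mean, ko minus wt, ran from 1.56 to 2.58. The log2 ratio of receptors to ligands, also as ko minus wt, ran from 2.85 to 3.46, while the ratio itself was below 0 in every library. These ranges all include Flt1, which was chosen for its difference, and are descriptions. In 2 genes the direction turned: Nrp2, at -0.043 to 0.50 without single libraries, was lowest without wt replicate 1, and Vegfb, at -0.59 to 0.13, was highest without wt replicate 3. Kdr could not be fitted with the filter of 1 CPM. Without a filter Flt4 (3.14, adjusted p = 0.415) and Vegfc (2.08, adjusted p = 0.343) did not pass. The causes were not tested. Genes with under 20 reads per library, as Flt1 and Kdr in wt, limit the precision of ratios.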

Other observations

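The red blood cell and Schwann cell lists were counted as well. Of 7 red blood cell markers 6 were tested and 0 passed with edgeR, while 1 was higher and 1 lower before adjustment and DESeq2 called 0, with a median log2 fold change of -0.30. They summed to 16.8, 14.7 and 10.8 CPM in ko replicates 1 to 3, against 20.1, 31.3 and 12.97 CPM in wt replicates 1 to 3. Slc4a1, the anion exchanger of red cells, made most of the sum in wt replicate 2, at 22.6 CPM. The globin genes have close copies, and their counts are uncertain. Of 6 Schwann cell markers 4 were tested and 0 passed with edgeR, 2 were higher before adjustment and DESeq2 called 1, with a median of 0.53. Beside both lists, 7.98% of all tested genes were higher and 5.25% lower before adjustment, and DESeq2 called 2.79% of its genes higher.

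Each group was also centred on its own mean, which takes out the gap between the groups. The 10 genes then most like Flt1 over the 6 libraries were Tnfaip8l1, Slc35e1, Zfp58, Clcc1, Rps6ka4, Far1, Opa3, Rpap3, Timp3 and Nppb. In Slc35e1, Rps6ka4 and Nppb all ko libraries lay above all wt libraries, in Tnfaip8l1 and Zfp58 all lay below, and the others overlapped. Nppb, the last of the 10 by r, encodes a natriuretic peptide. It was counted at 0.944, 1.24 and 4.98 CPM in ko replicates 1 to 3, against 0.44, 0.266 and 0.227 CPM in wt replicates 1 to 3 (r = 0.974). Rps6ka4 was among the 10 most alike both with and without centring (r = 0.993 without and 0.978 with).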
